A study of Saccharomyces cerevisiae with 8 samples.

Results

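RSP5 and 9 genes for its arrestin-type adaptors were followed on 8 two-colour Agilent arrays of budding yeast total RNA. The set holds RSP5, BUL1, BUL2, LDB19, ECM21, CSR2, ALY1, ALY2, ROD1 and ROG3, which were grouped by their role in the endocytosis of permeases. Their standard names were matched to the open reading frame in each probe's name, and all 10 were among the 6465 genes tested, out of 6546 features on the array. Each was read by 2 probes, of which the brighter gave the reported value.

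All 3 strains were haploid Saccharomyces cerevisiae of the SEY6210 background (per the wild-type label, of mating type MATα, with mutant alleles of LEU2, URA3, LYS2, TRP1, HIS3 and SUC2, and GAL). The double mutant carried pdr5-∆1::hisG and yor1-1::hisG, which disrupt the genes of 2 drug and lipid exporters of the plasma membrane. The triple mutant carried both of these disruptions and pdr1::kanMX4, in the gene of a transcription factor of drug resistance genes, and the wild type carried none of the 3. All were grown in YPD, a rich medium, at 30 °C. On 4 arrays the double mutant was set against wild type, and on 4 others the double mutant against the triple mutant, with the double mutant in Cy5 on arrays 1 and 3 of each comparison and in Cy3 on arrays 2 and 4. The question of the series is which transcripts differ between the double mutant and each of the other strains.

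Rsp5 is the yeast member of the Nedd4 family of HECT ubiquitin ligases and is essential for growth. It attaches ubiquitin to permeases and transporters at the plasma membrane and on internal membranes, which marks them for endocytosis and for sorting into the vacuole, where they are broken down. Rsp5 reaches many of these cargoes through adaptors with an arrestin fold and PY motifs, each serving its own, overlapping set of permeases. Much of the known control of these adaptors is by phosphorylation and ubiquitination of the adaptor proteins, so transcript levels are only 1 layer of it.

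The arrays shared 1 slide and had a median intensity per array of 401.7 to 1300.3 for Cy5 and of 116.9 to 1041.8 for Cy3, with 91.9% to 98.2% of probes well above background in Cy5, 85.7% to 98.7% in Cy3, and 0 saturated spots. The targeted genes were read first. PDR1 had log2 ratios of -2.88, -1.12, -2.81 and -2.63 on arrays 1 to 4 of the comparison with the triple mutant, which is low in the channel labelled double mutant on every array. Each of its 2 probes stood well above background in 0 of 4 channels labelled double mutant and in 4 of 4 labelled triple mutant, so these ratios are limited by the background and only a bound can be given. The weakest signal well above background was taken as the floor on each array. Averaged over the 4 arrays on the log2 scale, PDR1 was at least 4.8-fold lower in the channels labelled double mutant than in those labelled triple mutant. That is by the used probe, and the other probe gave at least 4.54-fold. These bounds are means and need not hold on each array singly. The direction goes against the labels. On the arrays with wild type, the used PDR1 probe was well above background in 4 of 4 double mutant channels, at percentiles 41.8 to 47.4. On the arrays with the triple mutant it stood at percentiles 0.267 to 3.19 in the channels labelled double mutant. In those labelled triple mutant it stood at 32.7 to 47.5. Whether the labels were exchanged was not tested. The strains are therefore named by their labels on these arrays, and with the labels exchanged each log2 ratio given against the triple mutant would have the opposite sign. Against wild type, PDR1 differed by 0.05, PDR5 by -1.46 and YOR1 by 1.94 on the log2 scale in the double mutant. Between the channels labelled double and triple mutant, whose strains carry the same disruptions of both genes, YOR1 differed by -1.67 (limma adjusted p = 1.8e-05) and PDR5 by -0.14 (adjusted p = 0.56). The labels do not give where the disruptions lie relative to the probes.

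Against wild type, 1 of the 10 genes was called by limma, with its p adjusted over all genes by the Benjamini-Hochberg method and a threshold of 0.05. ROD1 rose in the double mutant, by 1.22-fold, and the other 9 did not pass. Of the 10, 2 had an unadjusted p below 0.05. Over all genes 8.2% were called, 3.23% higher and 4.97% lower, so 1 call in 10 genes is close to the share of the whole array. In the comparison with the triple mutant 0 of 10 were called by limma, and 0 had an unadjusted p below 0.05; over all genes 1.59% were called, 1.05% higher and 0.541% lower. An unadjusted p below 0.05 was reached by 24.6% of all genes against wild type and by 14.6% against the triple mutant, which are the shares to set beside the unadjusted counts given for each list. The median log2 ratio of the 10 genes was 0.03 against wild type and -0.03 against the triple mutant, beside -0.01 and 0.00 over all genes. The arrays read RNA of whole cultures, so a transcript present in more cells and more transcript per cell cannot be told apart.

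**Figure D1:**
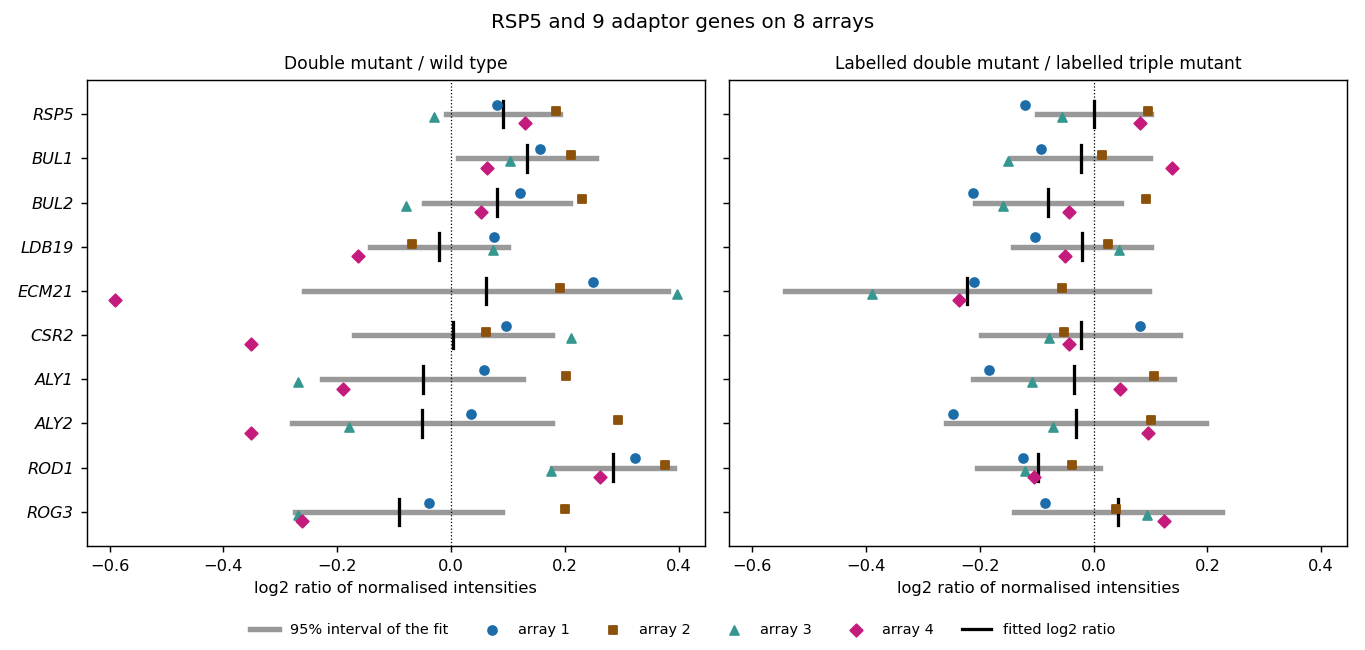
Log2 ratios of RSP5 and 9 adaptor genes on each array (symbols), with the fitted log2 ratio (black line) and its 95% interval (grey bar), for the double mutant over wild type (left) and for the labelled double over the labelled triple mutant (right). ROD1 stands at 0.17 to 0.38 on all 4 arrays against wild type, while ECM21 spreads between -0.59 and 0.40.

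RSP5 itself, the ligase common to all the adaptors, had log2 ratios of 0.08, 0.18, -0.03 and 0.13 on arrays 1 to 4 of the double mutant over wild type. The values lie on both sides of 0, with array 3 the lowest. The fitted ratio was 0.09 (95% interval -0.01 to 0.19, n = 4, limma adjusted p = 0.25). Against the triple mutant RSP5 had -0.12, 0.10, -0.06 and 0.08, and a fitted ratio of 0.00 (-0.10 to 0.10). The intervals for the ligase transcript reach 1.14-fold against wild type and 1.07-fold against the triple mutant. With the authors' processed signals the ratio against wild type was 0.31 and its interval wider (-0.10 to 0.71), and RSP5 was still not called (adjusted p = 0.54). Its probe was among the bright ones, between percentiles 82.5 and 88.7 of all probes in every channel.

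BUL1 and BUL2 encode a pair of related adaptors that act in the sorting and endocytosis of amino acid permeases such as Gap1. BUL1 had log2 ratios of 0.16, 0.21, 0.10 and 0.06 in the double mutant over wild type. It was above 0 on all 4 arrays, with a fitted ratio of 0.13 (0.01 to 0.26), and did not pass after adjustment (limma adjusted p = 0.16). BUL2 had 0.12, 0.23, -0.08 and 0.05, with a fitted ratio of 0.08 (adjusted p = 0.41). On the arrays with the triple mutant BUL1 had -0.09, 0.01, -0.15 and 0.14 and BUL2 had -0.21, 0.09, -0.16 and -0.04, both on either side of 0, and neither passed. On array 2 of that comparison the used BUL1 probe was not well above background in either channel, at percentiles 7.59 of all probes in the channel labelled double mutant and 5.29 in the channel labelled triple mutant, whereas its second probe stood at percentiles 59.0 and 57.1 there, so the BUL1 value of 0.01 on that array is no measured level. The second BUL1 probe read 0.05 on the same array. The used BUL2 probe was also at its dimmest on that array, at percentiles 29.6 and 27.0 beside a median of 74.9 over all channels, though still above background.

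LDB19, also known as ART1, encodes an adaptor for the removal of several amino acid permeases and of the uracil permease. It had log2 ratios of 0.08, -0.07, 0.07 and -0.16 against wild type and -0.10, 0.03, 0.04 and -0.05 against the triple mutant. Both sets straddle 0. The fitted ratio was -0.02 in each comparison, with intervals of -0.14 to 0.10.

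ECM21 and CSR2, also known as ART2 and ART8, are paralogs with a part in the removal of amino acid permeases and hexose transporters. ECM21 had log2 ratios of 0.25, 0.19, 0.40 and -0.59 in the double mutant over wild type, so 3 arrays were above 0 and array 4 far below it. CSR2 had 0.10, 0.06, 0.21 and -0.35, with array 4 again the only one below 0. The second probe of ECM21 was likewise above 0 on arrays 1 to 3 and far below it on array 4, at -0.57. The fitted ratio was 0.06 for ECM21 (-0.26 to 0.38, adjusted p = 0.83) and 0.00 for CSR2 (-0.17 to 0.18). Without array 4, ECM21 had 0.29 (0.12 to 0.45, adjusted p = 0.035) and was called, while CSR2 had 0.11 (-0.01 to 0.24, adjusted p = 0.22) and was not. Of all genes, 12.8% were called without that array, beside 8.2% with it. Array 4 had the lowest quality weight of the 8 arrays, 0.186 by limma, against 3.52 for the highest; the part of that array in the ECM21 result is given by these values alone.

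Set against the triple mutant, ECM21 had -0.21, -0.05, -0.39 and -0.24, below 0 on all 4 arrays and furthest from 0 of the 10 genes in that comparison. The fitted ratio was -0.22 (-0.54 to 0.10, limma adjusted p = 0.53). It passed when the 4 arrays of the comparison were fitted alone (adjusted p = 0.011) and with array quality weights (-0.25, adjusted p = 0.019), settings under which 19.3% and 26.1% of all genes were called. With the strain labels exchanged, ECM21 would be higher in the double mutant. CSR2 had 0.08, -0.05, -0.08 and -0.04, with a fitted ratio of -0.02.

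ALY1 and ALY2, also known as ART6 and ART3, are paralogs with a part in the traffic of the general amino acid permease Gap1 and the dicarboxylic amino acid permease Dip5. ALY1 had log2 ratios of 0.06, 0.20, -0.27 and -0.19 in the double mutant over wild type, and ALY2 had 0.03, 0.29, -0.18 and -0.35. Both were above 0 on arrays 1 and 2 and below 0 on arrays 3 and 4. The fitted ratio was -0.05 for each (ALY1 adjusted p = 0.73, ALY2 adjusted p = 0.80). On the arrays with the triple mutant ALY1 had -0.18, 0.11, -0.11 and 0.05 and ALY2 had -0.25, 0.10, -0.07 and 0.10. There both were above 0 on the 2 arrays with the double mutant in Cy3 and below 0 on the 2 with it in Cy5. RSP5 and BUL1 split in the same way. Over all genes, log2 ratios in this comparison correlated at 0.79 between arrays 1 and 3 and at 0.73 between arrays 2 and 4. Between arrays of unlike dye orientation the correlations were -0.07 to 0.35, so the split is not particular to ALY1 and ALY2. The fit has 1 dye term common to both comparisons, and the fitted ratio was -0.03 for each of the 2 genes.

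ROD1 and ROG3, also known as ART4 and ART7, are paralogs known for the removal of the lactate transporter Jen1 and of hexose transporters when the carbon source changes. ROD1 takes its name from resistance to o-dinitrobenzene. ROD1 had log2 ratios of 0.32, 0.38, 0.17 and 0.26 in the double mutant over wild type. All 4 arrays were above 0, in both dye orientations, with a mean of 0.28 ± 0.086 (SD, n = 4). The fitted ratio was 0.28 (0.18 to 0.39), or 1.22-fold (1.13 to 1.31), with an adjusted p of 0.010 by limma. Of all 6465 genes, 96.2% had no higher ratio than ROD1. The call was lost without array 1 (0.26, adjusted p = 0.059), with the 4 arrays alone (0.28, adjusted p = 0.18), and under other scalings, with 0.50 from the authors' processed signals (adjusted p = 0.091) and 0.27 after median centring (adjusted p = 0.19), though the ratio stayed above 0 in all 22 alternatives.

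ROG3 had -0.04, 0.20, -0.27 and -0.26 against wild type. Only array 2 was above 0, and the fitted ratio was -0.09 (-0.27 to 0.09, adjusted p = 0.52). Set against the triple mutant, ROD1 had -0.12, -0.04, -0.12 and -0.11, a narrow spread below 0 on all 4 arrays, and a fitted ratio of -0.10 (-0.20 to 0.01, limma adjusted p = 0.39). It passed only with array quality weights (-0.10, adjusted p = 0.035). With the labels exchanged ROD1 would be higher in the double mutant by the same amount. ROG3 had -0.08, 0.04, 0.09 and 0.12 there, with a fitted ratio of 0.04.

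The second probe of each gene gave a further reading of the same RNA. For ROD1 it read 0.11, 0.36, 0.08 and 0.16 against wild type, above 0 on all 4 arrays but with a lower fitted ratio of 0.18 (0.06 to 0.30), which did not pass when second probes were used throughout (adjusted p = 0.074). This gap of 0.11 between the ROD1 probes was the widest of the 10 genes in that comparison, and the narrowest was that of ECM21, where both probes gave 0.06. The second ROD1 probe read -0.14, -0.08, -0.14 and -0.17 against the triple mutant. That is again below 0 on all 4 arrays, with a fitted ratio of -0.13 (-0.25 to -0.02). In each comparison 9 of the 10 genes had the same sign from both probes, the exceptions being ALY1 against wild type (-0.05 and 0.01) and LDB19 against the triple mutant (-0.02 and 0.03).

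**Figure D2:**
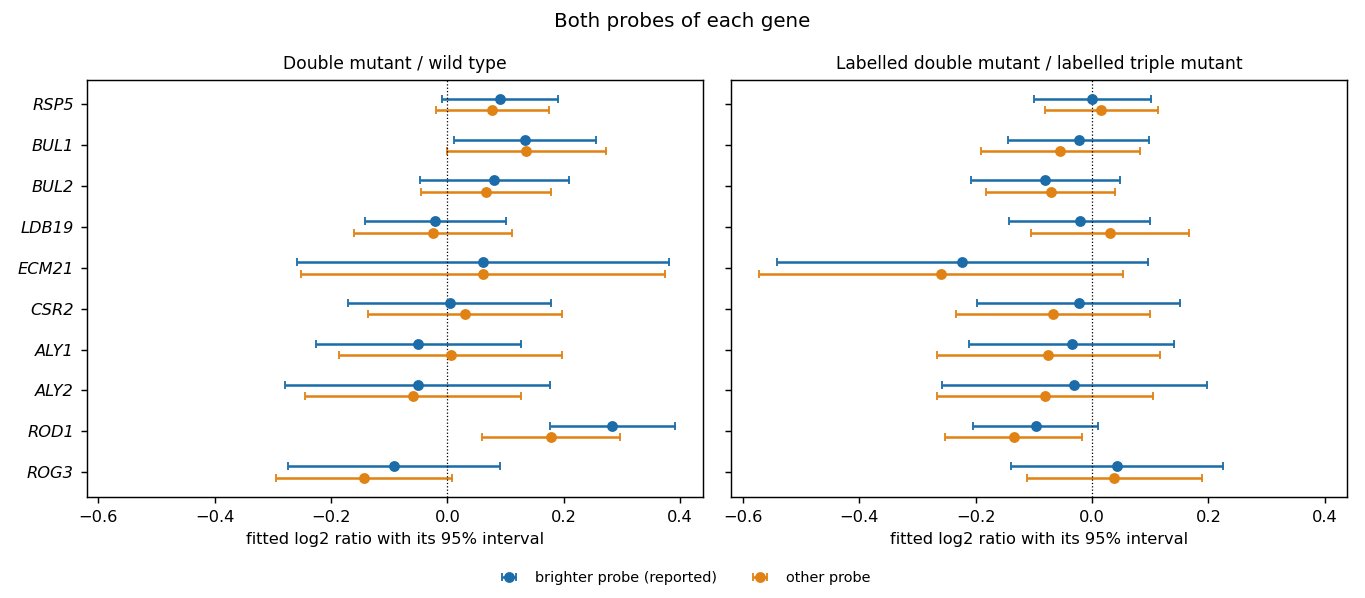
Fitted log2 ratio with its 95% interval from the brighter probe (blue, the reported value) and the other probe (orange) of each gene, against wild type (left) and against the triple mutant (right). The ROD1 intervals of both probes lie above 0 on the left, at 0.28 and 0.18, and the probes of the other genes lie within 0.1 of each other.

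The adaptors include 4 pairs of paralogs, and the members of a pair were compared on each array, where they share the labelled RNA and the dye. Their probes were not equally bright. The median percentile over all channels was 31.9 for ROD1 and 16.2 for ROG3, and 44.7 for ECM21 and 14.9 for CSR2. Loess scaling follows intensity and ratios of dim probes are drawn towards 0, and the part of this in the differences was not tested. In the double mutant over wild type, the log2 ratio of ROD1 minus that of ROG3 was 0.36, 0.18, 0.44 and 0.52. ROD1 was above its paralog on all 4 arrays, by 0.38 ± 0.15 (SD, n = 4). A two-sided exact sign-flip permutation test gave p = 0.125, the smallest that 4 arrays allow, or 0.33 after Benjamini-Hochberg adjustment over the 8 tests of 4 pairs in 2 comparisons. Against the triple mutant ROD1 was below ROG3 on all 4 arrays, with a mean difference of -0.14 ± 0.096 (exact permutation p = 0.125, adjusted 0.33), and above it if the labels are exchanged. ECM21 minus CSR2 was 0.15, 0.13, 0.19 and -0.24 against wild type, and -0.29, 0.00, -0.31 and -0.19 against the triple mutant, a mean of -0.20 ± 0.14 with array 2 close to 0. ALY1 minus ALY2 was 0.02, -0.09, -0.09 and 0.16 against wild type, differences of both signs with a mean of 0.00 ± 0.12, and had a mean of 0.00 ± 0.051 against the triple mutant. BUL1 was above BUL2 on 3 of 4 arrays in each comparison, by 0.05 and 0.06 on average. Since 4 arrays cannot reach 0.05 in this test, it decides nothing about any of the pairs, and the differences are given as a description.

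**Figure D3:**
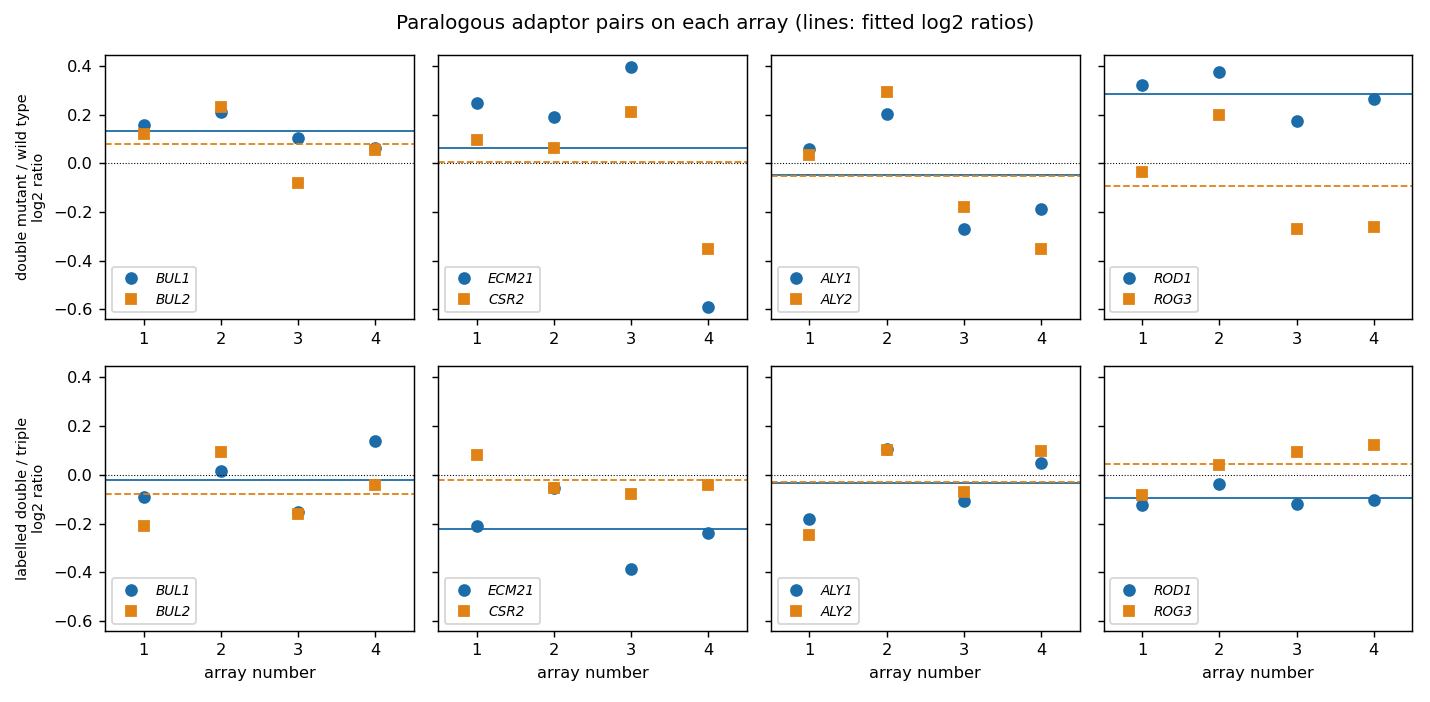
Log2 ratios of both members of each paralogous adaptor pair by array, against wild type (upper row) and for the labelled double over the labelled triple mutant (lower row), with the fitted ratios as lines (solid for the first gene, dashed for the second). ROD1 lies above ROG3 on all 4 arrays in the upper row and below it in the lower row, while ALY1 and ALY2 change places between arrays.

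The ratios of the 10 genes were no larger than those of the rest of the array. Their median absolute log2 ratio was 0.07 against wild type and 0.03 against the triple mutant, beside 0.09 and 0.07 over all genes. As scaled and fitted here, all 10 intervals lay within 1.5-fold in either direction in both comparisons. The widest bounds were 1.31-fold for ROD1 against wild type and 1.46-fold for ECM21 against the triple mutant. The fit took 1 spread per gene from both comparisons, so an interval does not show the spread within its own comparison. For ECM21 the SD of the 4 arrays was 0.44 against wild type and 0.14 against the triple mutant. Both of its intervals rest on the same standard error, 0.14. Differences beyond 1.5-fold are therefore not excluded by these intervals. In each comparison 2 of the 10 had 1 sign on all 4 arrays (BUL1 and ROD1 above 0 against wild type, ECM21 and ROD1 below 0 against the triple mutant), beside 25.3% and 25.5% of all genes. Both comparisons share the double mutant, so the ROD1 ratios in them are not independent readings.

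The other genes around Rsp5 were counted in lists by role. Of 11 further adaptors of Rsp5, among them ART5, RIM8 and the vacuolar and endosomal adaptors SSH4 and TRE1, 0 were called by limma in either comparison, with 4 and 1 at an unadjusted p below 0.05 against wild type and against the triple mutant. Their fitted log2 ratios ran from -0.30 to 0.16 against wild type, with a median of -0.03. Of the 4 other HECT ligases, which have their own substrates, 0 were called and 0 had an unadjusted p below 0.05 in either comparison. The list of MGA2, SPT23 and OLE1 stands for another task of Rsp5, the release of both membrane-bound activators of the fatty acid desaturase gene OLE1. It held 0 calls in either comparison, with 1 and 0 of its 3 genes at an unadjusted p below 0.05 and median ratios of -0.01 and -0.04.

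Among 16 genes of ubiquitin supply, deubiquitination and adaptor regulation, 1 was called against wild type and 0 against the triple mutant (2 and 1 at an unadjusted p below 0.05). DOA4, which encodes the enzyme that recovers ubiquitin from cargo before it enters the multivesicular body, had log2 ratios of 0.51, 0.39, 0.09 and 0.43 in the double mutant over wild type. It was above 0 on all 4 arrays, lowest on array 3, and rose by 1.28-fold (0.36, limma adjusted p = 0.031). The call was lost without array 1 (0.25, adjusted p = 0.10) or array 2 (0.38, adjusted p = 0.056) of that comparison, without array 2, 3 or 4 of the other, and in 12 of 22 alternatives in all. The median of the list was 0.00 against wild type.

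The cargoes were the list with most calls. Of 20 permeases and transporters listed as cargoes of Rsp5 adaptors in general, 4 fell in the double mutant and 0 rose, beside 4.97% lower over all genes. ZRT1, the high-affinity zinc transporter, had log2 ratios of -0.43, -0.68, -0.77 and -0.51, all well below 0, and fell by 0.59 on the log2 scale (limma adjusted p = 0.0034). It kept its call with any 1 array left out. DIP5, the glutamate and aspartate permease, had -0.36, -0.33, -0.50 and -1.21, with array 4 the lowest (fitted -0.60, adjusted p = 0.037). Without array 4 DIP5 had -0.37 and was still called (adjusted p = 0.0084). Its call was lost without array 1 (adjusted p = 0.085) or array 3 (adjusted p = 0.10). It was also lost without any 1 array of the other comparison, and was kept in 11 of 22 alternatives. MUP1, the methionine permease, had -0.23, -0.17, -0.58 and -0.63 (fitted -0.40, adjusted p = 0.039), and was called in 9 of 22 alternatives. The remaining call, ITR1, a myo-inositol transporter named here after its values were seen, had a fitted ratio of -0.23 (adjusted p = 0.043). It was called in 6 of 22 alternatives.

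None of these cargo calls held under every alternative. With the authors' processed signals, median centring or the 4 arrays alone, 0 of the 20 were called against wild type, and ZRT1 had adjusted p-values of 0.17, 0.19 and 0.085 there. Without array 1 or array 3 of the comparison with wild type, or without any 1 array of the other comparison, 1 of the 20 was called lower. Without array 4 there were 5 lower and 1 higher, beside 12.8% of all genes called (446 lower, 379 higher). The median of the 20 was -0.20 (18 of 20 below 0), beside -0.01 over all genes. Against wild type 9 of the 20 had an unadjusted p below 0.05, or 45%, beside 24.6% of all genes. By array the median was -0.19, -0.07, -0.02 and -0.53, so array 4 again stood lowest, and without it the fitted median was -0.09. Against the triple mutant 0 of 20 were called by limma, 6 had an unadjusted p below 0.05, and 16 were above 0 with a median of 0.11, signs that turn with the labels. With the 4 arrays fitted alone, or with array quality weights, 8 of them were called higher and 2 lower. Of all genes, 19.3% were called with the 4 arrays alone (825 higher, 425 lower) and 26.1% with the weights (949 higher, 740 lower).

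Downstream of ubiquitination, the list of 14 genes of early endocytosis held 1 call against wild type, with 4 at an unadjusted p below 0.05. EDE1, an early-arriving scaffold with ubiquitin-binding activity, had 0.23, 0.06, 0.38 and 0.22, above 0 on all 4 arrays, and rose by 1.17-fold (0.22, limma adjusted p = 0.036). Leaving out any 1 of the 8 arrays took its adjusted p above the threshold, to between 0.053 and 0.11. The list's median was 0.09 against wild type. In the other comparison 0 of 14 were called by limma and 3 had an unadjusted p below 0.05. Of 15 genes of the ESCRT complexes, which sort ubiquitinated cargo into the multivesicular body, 0 were called in either comparison (1 and 0 at an unadjusted p below 0.05), with medians of 0.00 and -0.06.

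**Figure D4:**
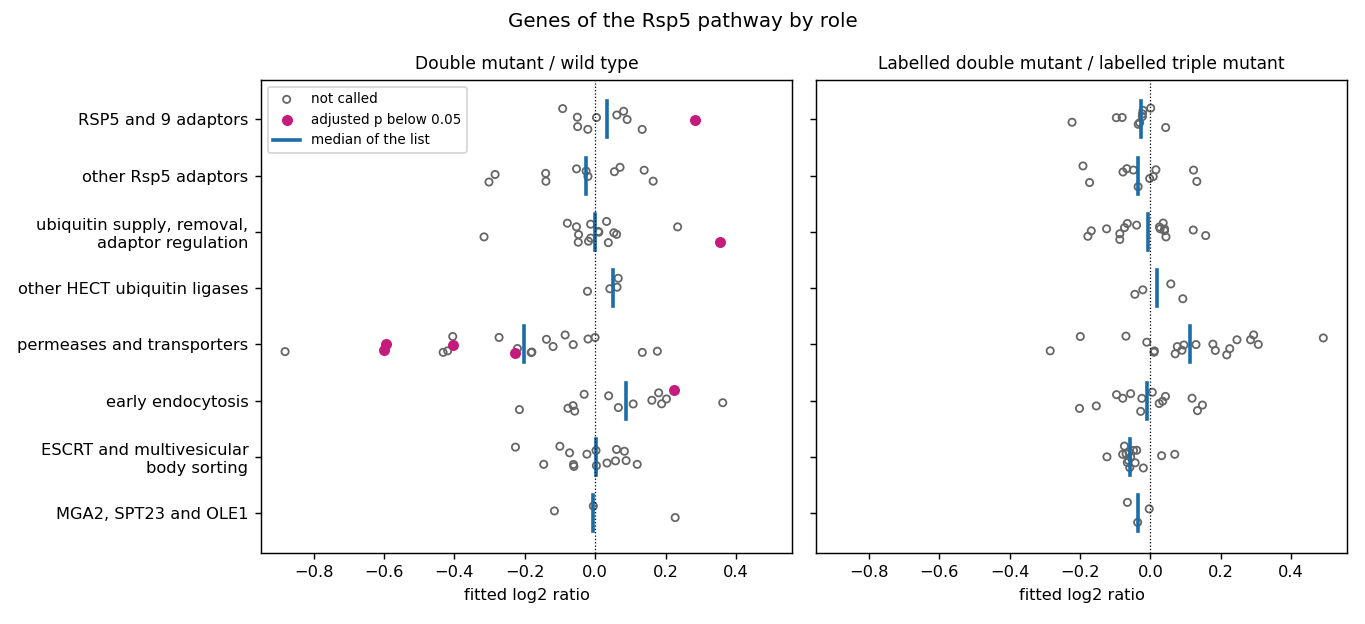
Fitted log2 ratios of RSP5 and its adaptors and of 7 further lists of genes by role (1 point per gene, filled where the adjusted p is below 0.05, blue bar for the list's median), against wild type (left) and for the labelled double over the labelled triple mutant (right). The 4 filled points of the permease row lie below 0 and ROD1, DOA4 and EDE1 above it, and the right panel has none.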

How the data were processed

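RNA of 3 yeast strains was compared on 8 arrays. Per the file headers, the authors extracted the scans with Agilent Feature Extraction 10.7.3.1; the deposited files hold mean, local background and processed intensity values per spot and channel, with other columns of 0 or 1 flags. The annotation build is not given in the sources used here. A table of normalized values was not used, since its 8 value columns match no array's labels.

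Mean signals were background-corrected by normexp (offset 50) and scaled by loess within each array in limma 3.58.1 (R 4.3.3), with control and outlier spots at weight 0. A probe was kept if well above background in at least 4 of 16 channel measurements. Symbols were matched by locus tag. One model over the 8 arrays had a coefficient per comparison and a common dye term (5 residual degrees of freedom); limma's p-values were adjusted over 6465 genes. Ratios are double mutant over wild type, and labelled double over labelled triple mutant. Intervals are 95% intervals of the fit. The number of arrays limits the precision.

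No label says if the arrays stand for separate cultures; p-values then measure only the spread between these arrays, which may be technical. The genes and lists were chosen with earlier results of these data known. Named were all 10 genes, the 3 disrupted genes, and up to 3 called genes per list, direction and comparison by smallest adjusted p. Alternatives covered background, scaling, probe filter and choice, dye term, arrays in the fit, blocks, weights and each array left out; 2 were added after seeing the data (dye-swap pairs averaged, a dye term per comparison). The procedure was tested on simulated data.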

Additional observations from a re-analysis of the deposited data

Results flagged for a closer look

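PDR1, the disrupted gene used to check the labels, had a log2 ratio of -1.12 on array 2 of the comparison between the channels labelled double and triple mutant, against -2.63 to -2.88 on the other 3 arrays. The gap between array 2 and the nearest other array took up 0.853 of the range of the 4. The PDR1 probe was not well above background in any of the 4 channels labelled double mutant, so each of these ratios is a bound set in part by the background, and the gap is not a measured difference in PDR1 level. Array 2 also had the lowest median signals of the 8 in both channels, 401.7 intensity units in Cy5 and 116.9 in Cy3, and its part in the PDR1 value was not tested. The same rule was run on each of the 10 genes of the Rsp5 set, the called genes of the other lists and the 3 disrupted genes, and it marked none of the others in either comparison; with 4 values chance marks about 1 group in 20.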

How the results depend on the processing

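Of the 10 genes, 1 was called against wild type, and 0 were called with the authors' processed signals, median centring, the other probe of each gene, the 4 arrays alone or dye-swap pairs averaged (ROD1 adjusted p = 0.056 in the last, which was added after seeing the data). Those settings called 0.387% to 7.81% of all genes. Leaving out 1 array gave 0 to 2 calls, beside 3.12% to 12.8% of all genes. Against the triple mutant 0 were called, 1 with the 4 arrays alone (ECM21) and 2 with array quality weights (ECM21 and ROD1). Of all genes, 19.3% and 26.1% were called in these settings. Leaving out any 1 array gave 0 there, beside 0.356% to 7.3% of all genes. The cause was not tested. A fit of 4 arrays alone has fewer samples, yet of all genes it called 25 against wild type and 1250 against the triple mutant. The main fit took 1 spread per gene over both comparisons, so p-values and intervals in each rest in part on the spread of the other. The limma array weights were 0.186 to 0.999 against wild type and 1.04 to 3.52 against the triple mutant.

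The deviations of same-numbered arrays correlated at -0.18 to 0.20, and at -0.69 to 0.02 once the dye term was fitted. The second measure cannot decide on a pairing, since a dye term common to both comparisons pulls it below 0 by construction. On the first, not every pair exceeded 0.1, and the arrays were treated as sharing only a number. With the replicate number as a block, 1 and 0 of the 10 genes were called and 244 and 40 of all genes, against 530 and 103 without it. The number of all genes called ran from 25 to 825 against wild type and from 21 to 1689 against the triple mutant over all alternatives. The split of higher and lower calls moved with the scaling, from 209 and 321 to 31 and 9 (processed signals) or 28 and 26 (median centring) against wild type, and from 68 and 35 to 14 and 26 or 5 and 16 against the triple mutant. Scaling between arrays gave 309 calls against the triple mutant. No scaling moved the median of all genes by over 0.1.

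Ratios near 0 changed sign. With processed signals against the triple mutant RSP5 had -0.149, BUL1 0.139, LDB19 0.085 and CSR2 0.112. With median centring there RSP5 had -0.054, BUL1 0.318, BUL2 0.059 and ALY2 0.046. LDB19 there had 0.0054 as a mean over probes and 0.032 from its other probe. Against wild type ALY1 had 0.0055 from its other probe, and with array weights LDB19 had 0.018 and ALY2 0.0080. With 1 array left out, ranges that cross 0 against wild type were -0.036 to 0.285 (ECM21), -0.054 to 0.111 (CSR2), -0.126 to 0.039 (ALY1), -0.158 to 0.099 (ALY2) and -0.042 to 0.019 (LDB19), and against the triple mutant -0.057 to 0.029 (LDB19), -0.053 to 0.026 (ALY2), -0.0075 to 0.018 (RSP5), -0.067 to 0.0081 (BUL1) and -0.050 to 0.034 (CSR2). Against wild type RSP5, BUL1, BUL2, ROD1 and ROG3 kept their sign in all 22 alternatives, as did ECM21, ALY1, ROD1 and ROG3 against the triple mutant.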
